A study of Mus musculus with 10 samples.

Results

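The 7 genes described here are the ligand Csf1 and the receptor genes Csf1r, Csf3r, Csf2ra, Csf2rb, Csf2rb2 and Il3ra, through which myeloid cells receive M-CSF, G-CSF, GM-CSF and IL-3. They were taken by name, as the 7 rows among 55421 genes of the raw count table whose Ensembl identifiers map to these symbols in the annotation of the mouse genome GRCm38. Their mRNA was measured by RNA sequencing in 10 libraries from mice that carried subcutaneous MC17-51 fibrosarcomas for 15 days, in 4 groups. All mice carried floxed Ptpn11 alleles (Shp2f/f), the gene of the phosphatase SHP-2. In Shp2f/fLysMcre mice Cre recombinase was also present at the lysozyme locus Lyz2, a locus active in monocytes, macrophages and neutrophils, so that Ptpn11 stays intact in other cells. Myeloid-derived suppressor cells (MDSC), immature myeloid cells that expand in tumor-bearing animals, came from the spleen as GR-1+ cells held on magnetic beads, with 2 libraries per genotype. The methods name the sequenced cells as the polymorphonuclear subset and give its surface phenotype as high GR1 with Ly6G and without Ly6C. Tumor-associated macrophages (TAM) were sorted from the tumors as live CD45+CD11b+F4/80+Ly6G- cells, with 3 libraries per genotype. The methods give an age of 8 to 12 weeks at implantation and the same mice as the source of both cell types. Which libraries shared a mouse, and whether mice were pooled, is not given in the sources used here, so p-values measure the spread between these libraries.

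Myeloid growth factors act through receptors of 2 classes. CSF1R is a receptor tyrosine kinase bound by M-CSF, the product of Csf1, and by IL-34, and macrophages depend on it for survival. G-CSF binds CSF3R, which pairs with itself and drives the production of neutrophils. GM-CSF and IL-3 each bind an alpha chain of their own, encoded by Csf2ra and Il3ra, which pairs with a signaling beta chain. The mouse has a pair of beta chain genes. Csf2rb encodes the common beta chain used by GM-CSF, IL-3 and IL-5, and Csf2rb2 encodes a chain used by IL-3 only. The cytokine receptors signal through JAK kinases and STAT factors, and SHP-2 is recruited to these receptors or to their adaptors.

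Csf2rb lies on chromosome 15 at 78325752 to 78353847 on the plus strand, and Csf2rb2 lies 20030 bases away on the minus strand at 78282507 to 78305721. Their coding sequences were identical at 2503 of 2628 aligned bases (95.2%). Of all 42-base windows in the transcripts, the length of 1 read, 14.5% for Csf2rb and 21.9% for Csf2rb2 were found in both genes. No such window was shared among the other 5 genes. The next stretches are shown because they tell where a read can and cannot be assigned to 1 beta chain. They are the most different 120 aligned coding bases, in exon 4 of transcripts Csf2rb-201 and Csf2rb2-201 (GRCm38, GENCODE), with the 16 differing bases in capitals.
Csf2rb, chr15:78338867-78338986, plus strand: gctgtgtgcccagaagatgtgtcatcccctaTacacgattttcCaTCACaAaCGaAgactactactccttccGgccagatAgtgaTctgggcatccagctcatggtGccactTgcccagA
Csf2rb2, chr15:78294345-78294464, minus strand: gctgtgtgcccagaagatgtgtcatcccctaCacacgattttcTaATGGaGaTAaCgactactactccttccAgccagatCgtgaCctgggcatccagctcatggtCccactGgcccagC
In exon 14, by contrast, 120 bases were the same in both genes, within identical runs of up to 242 bases.
Csf2rb, chr15:78348577-78348696, plus strand: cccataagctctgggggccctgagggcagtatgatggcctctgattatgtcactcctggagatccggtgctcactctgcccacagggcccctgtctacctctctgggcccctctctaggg
The handling of reads with several matches was not stated, so the division of reads between Csf2rb and Csf2rb2 is uncertain, and their sum is given below as well.

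The other members lie apart from each other, Csf1 on chromosome 3 (107741048 to 107760469, minus strand), Csf3r on chromosome 4 (126024550 to 126044440, plus strand), Il3ra on chromosome 14 (14346275 to 14356011, plus strand) and Csf2ra on chromosome 19 (61223957 to 61228429, minus strand). RefSeq gave an upstream sequence (GRCm38.p6) for 5 of the 7 genes. PU.1, the product of Spi1 and a factor of all myeloid cells, binds sites built around the letters GAGGAA. This run, or TTCCTC as it reads on the other strand, was searched in the 250 bases before the RefSeq start of each gene. That start is the GENCODE start for Csf1 and Csf2rb2. For Csf2ra, Csf3r and Il3ra it lies inside the gene span given above, so part of the window, and for Il3ra most of it, is within the GENCODE gene. It was found in Csf2ra (2 matches), Csf2rb2 (1 match) and Csf3r (1 match), and in 23.3% of 32851 promoters. The match in Csf3r lies inside the GENCODE gene, and those in Csf2ra lie at and just inside its start. Csf1 and Il3ra had no match in the window searched. A pair of stretches of 120 bases is shown, with the matches in capitals, because Csf2ra and Csf2rb2 carry them in different places.
Csf2ra, chr19:61228419-61228538, minus strand: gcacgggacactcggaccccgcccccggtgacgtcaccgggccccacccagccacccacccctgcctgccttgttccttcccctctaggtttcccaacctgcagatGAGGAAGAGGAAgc
Csf2rb2, chr15:78305812-78305931, minus strand: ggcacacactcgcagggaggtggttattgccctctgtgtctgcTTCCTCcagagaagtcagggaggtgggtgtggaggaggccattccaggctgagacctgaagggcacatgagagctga

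The libraries held 28844660 to 38222998 counts, and the 7 genes had between 344 and 57668 counts in each. Lyz2, which the Cre insertion interrupts, fell from at least 308715 to at most 1881 counts in MDSC and from at least 116855 to at most 390 in TAM, so all 10 libraries went with their genotype labels. Loss of Lyz2 transcript and presence of Cre thus went with the targeting of Ptpn11 in both cell types and cannot be told apart from it. Ptpn11, the targeted gene, fell by 1.24 on the log2 scale in TAM (SE 0.0386, edgeR, BH-adjusted p = 2.96e-09). In MDSC its log2 fold change of -0.29 (SE 0.143) was not called (edgeR, BH-adjusted p = 0.361). Several library features moved with genotype or stood out in 1 library. Xist was at 1 count in each MDSC Shp2f/f library and at 4759 to 4875 in MDSC Shp2f/fLysMcre, and was also higher in TAM Shp2f/fLysMcre (6465 to 10395 counts against 185 to 665), with no overlap between the genotypes in either cell type. The sex of the mice, as read from Xist, and the genotype therefore cannot be told apart in MDSC. In TAM Xist differed with genotype as well, and whether the mix of sexes did was not tested. The methods state that males and females were used in equal numbers. None of the 7 genes lies on a sex chromosome. A sum over 6 pancreas genes was 855 to 6692 CPM of the total in TAM Shp2f/f and 18.7 to 87.2 in TAM Shp2f/fLysMcre. A sum over 5 fibroblast genes was 491 CPM of the total in MDSC Shp2f/fLysMcre replicate 2 and 6.85 to 25.2 in the other 3 MDSC libraries. The part of these features in the results below was not tested.

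The MDSC fraction was checked against markers. The sum over 12 granulocyte genes was 9501 to 9797 CPM of the total in MDSC Shp2f/f and 27776 to 31693 in MDSC Shp2f/fLysMcre, and 8 of the 12 genes were called higher. The sum over 12 monocyte and macrophage genes was 4581 to 4703 and 3692 to 3796, with 1 of 12 called lower. Ly6g, the surface marker of granulocytic MDSC, had a mean of only 10.4 CPM in MDSC Shp2f/f and 31.5 in MDSC Shp2f/fLysMcre, whereas the monocyte receptor gene Ccr2 had 1933 and 1345 CPM. Ly6c2, a gene of the Ly6C antigen that the methods give as absent from these cells, had 498 and 540 CPM. The fraction thus held abundant monocyte transcripts, against the stated phenotype, and the MDSC values below are those of this mixed fraction. In TAM the granulocyte sum was 2109 to 4480 CPM, most of it from Mmp9, with Ly6g at 0.19 and 0.12 CPM, and the monocyte and macrophage sum was 10522 to 17394. In such bulk samples, fewer cells of a type and less RNA per cell cannot be told apart.

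Levels are given as CPM, the count relative to library size, scaled jointly over all 10 libraries with edgeR's TMM factors, and genes are compared with each other only per kb of annotated exon. In MDSC Shp2f/f, Csf1r was the highest of the 7 at 248 ± 2.76 CPM per kb (SD, n = 2), followed by Csf3r at 185 ± 18.3 and Csf2ra at 148 ± 4.70. Csf2rb followed at 91.2 ± 4.64, Csf2rb2 at 34.7 ± 2.86, Il3ra at 13.2 ± 0.58 and Csf1 at 2.21 ± 0.47 CPM per kb (SD, n = 2). The libraries of neighbors in this order did not overlap. In MDSC Shp2f/fLysMcre, Csf3r (216 ± 33.5 CPM per kb) stood before Csf1r (196 ± 25.3; SD, n = 2), and Csf3r was the higher of the pair within each library, although the ranges over the libraries overlapped.

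The order differed in TAM. Csf1r led in TAM Shp2f/f at 253 ± 6.76 CPM per kb (SD, n = 3), then Csf2ra at 84.9 ± 1.12, Csf2rb at 55.8 ± 1.09, Csf2rb2 at 35.5 ± 0.69 and Csf3r at 31.9 ± 0.55, with Il3ra at 11.6 ± 0.53 and Csf1 at 5.0 ± 0.41. The order was the same in TAM Shp2f/fLysMcre, from Csf1r at 286 ± 9.77 CPM per kb (SD, n = 3) to Csf1 at 6.27 ± 0.33, and again no neighbors overlapped. Csf1r ranked between 151 and 235 in the mean level per kb over all genes in the 4 groups. Csf1 was the lowest of the 7 genes in every group, and the IL-3 alpha chain gene Il3ra was next to it. Levels per kb rest on the union of annotated exons, which is long for Csf2rb (7.28 kb).

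**Figure D1:**
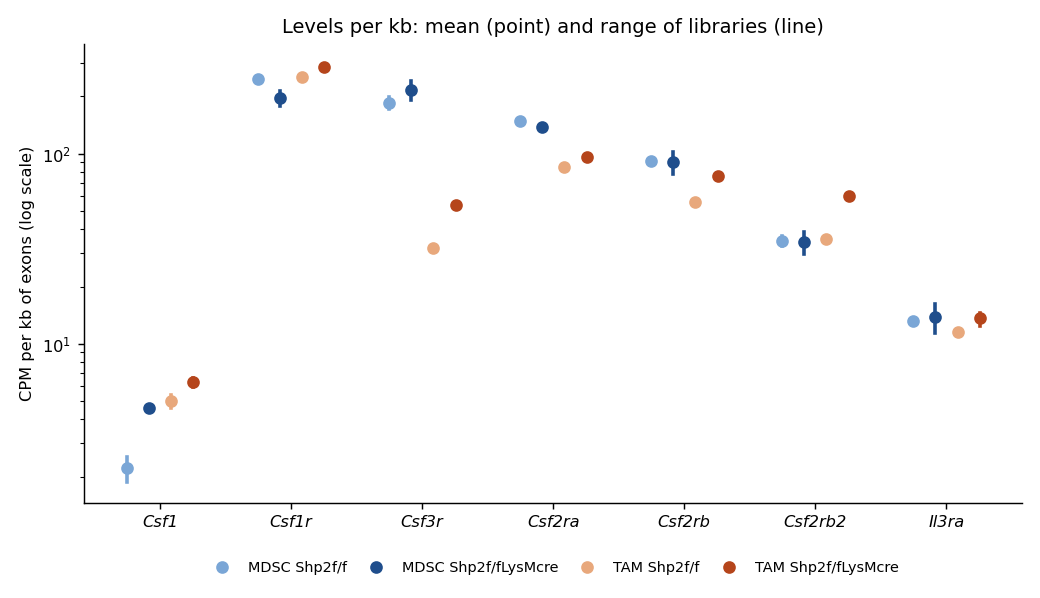
Level of each gene in CPM per kb of exons (vertical log axis) for the 4 groups (colors), with points for the mean and lines for the range of 2 (MDSC) or 3 (TAM) libraries. Csf3r falls from 185 in MDSC Shp2f/f to 31.9 in TAM Shp2f/f, while Csf1r lies between 196 and 286 in all groups.

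The first comparison was between the cell types within each genotype. In Shp2f/f mice the clearest difference was in Csf3r, the G-CSF receptor gene, which was far lower in TAM, while the M-CSF receptor gene Csf1r was at a like level in both fractions. Of the 7 genes, 1 was called higher in TAM (Csf1) and 4 lower (Csf3r, Csf2ra, Csf2rb and Il3ra) at a BH-adjusted p under 0.05. Of all 15659 genes tested, 78.8% were called in either direction, 40.0% higher and 38.8% lower, so the count of 5 of 7 is near the background. The values below are therefore given gene by gene.

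Csf3r was 716 and 623 CPM in the MDSC Shp2f/f libraries and 117, 113 and 115 CPM in the TAM Shp2f/f libraries, with no overlap. The TAM level was 0.171 of the MDSC level (log2 fold change -2.54, SE 0.0643, edgeR, BH-adjusted p = 5.59e-10). In Shp2f/fLysMcre mice Csf3r was 866 and 696 CPM in MDSC and 189, 199 and 196 CPM in TAM, a log2 difference of -2.00 (SE 0.11, edgeR, BH-adjusted p = 3.93e-05). Csf3r was the gene of the 7 with the largest difference between the cell types in both genotypes.

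The GM-CSF receptor genes were also lower in TAM, by less. Csf2ra, the GM-CSF alpha chain, was 435 and 416 CPM in MDSC Shp2f/f and 247, 241 and 243 CPM in TAM Shp2f/f. The difference of -0.81 on the log2 scale (SE 0.0462) was called (edgeR, BH-adjusted p = 1.79e-07), and so was that of -0.52 (SE 0.0668) in Shp2f/fLysMcre mice (edgeR, BH-adjusted p = 0.0011). Csf2rb, the common beta chain, was 687 and 639 CPM in MDSC Shp2f/f and 415, 404 and 399 CPM in TAM Shp2f/f (log2 difference -0.71, SE 0.0501, edgeR, BH-adjusted p = 8.13e-07). In Shp2f/fLysMcre mice its difference of -0.24 (95% interval -0.55 to 0.06) was not called (edgeR, BH-adjusted p = 0.132). Without 1 library it ranged from -0.44 to -0.03, and -0.44 came without MDSC replicate 2, which left 1 MDSC library.

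Csf1r (chromosome 18, 61100598 to 61132149, plus strand) was 1419 and 1441 CPM in MDSC Shp2f/f and 1457, 1503 and 1425 CPM in TAM Shp2f/f, with overlapping libraries. The log2 difference was 0.03 with a 95% interval of -0.07 to 0.12. Of its exon bases 873 (15.1%) overlap Hmgxb3 on the opposite strand, which held 1059 to 1569 counts a library against at least 41135 for Csf1r. In Shp2f/fLysMcre mice the TAM level of Csf1r was 1.47 times that of MDSC (log2 0.55, SE 0.102, edgeR, BH-adjusted p = 0.00466). Csf2rb2 showed the same form, with a log2 difference of 0.03 in Shp2f/f (95% interval -0.10 to 0.16) and of 0.80 in Shp2f/fLysMcre (SE 0.127, edgeR, BH-adjusted p = 0.00253). Without MDSC Shp2f/f replicate 1 the Shp2f/f difference of Csf2rb2 was 0.11, and without replicate 2 it was -0.06, each with 1 MDSC library left.

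Csf1, the M-CSF gene, was higher in TAM, 2.26-fold in Shp2f/f (log2 1.18, SE 0.125, edgeR, BH-adjusted p = 1.60e-05) and 1.37-fold in Shp2f/fLysMcre (log2 0.45, SE 0.0851, edgeR, BH-adjusted p = 0.00499). Il3ra differed little, by -0.20 in Shp2f/f (SE 0.0614, edgeR, BH-adjusted p = 0.0149) and by -0.01 in Shp2f/fLysMcre (95% interval -0.40 to 0.37). The Il3ra call in Shp2f/f was lost without MDSC replicate 2 (-0.15), a fit with 1 MDSC library. In Shp2f/fLysMcre mice 3 of the 7 genes were called higher in TAM (Csf1, Csf1r and Csf2rb2) and 2 lower (Csf3r and Csf2ra), while 63.5% of 15741 genes were called, 29.8% higher and 33.7% lower.

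**Figure D2:**
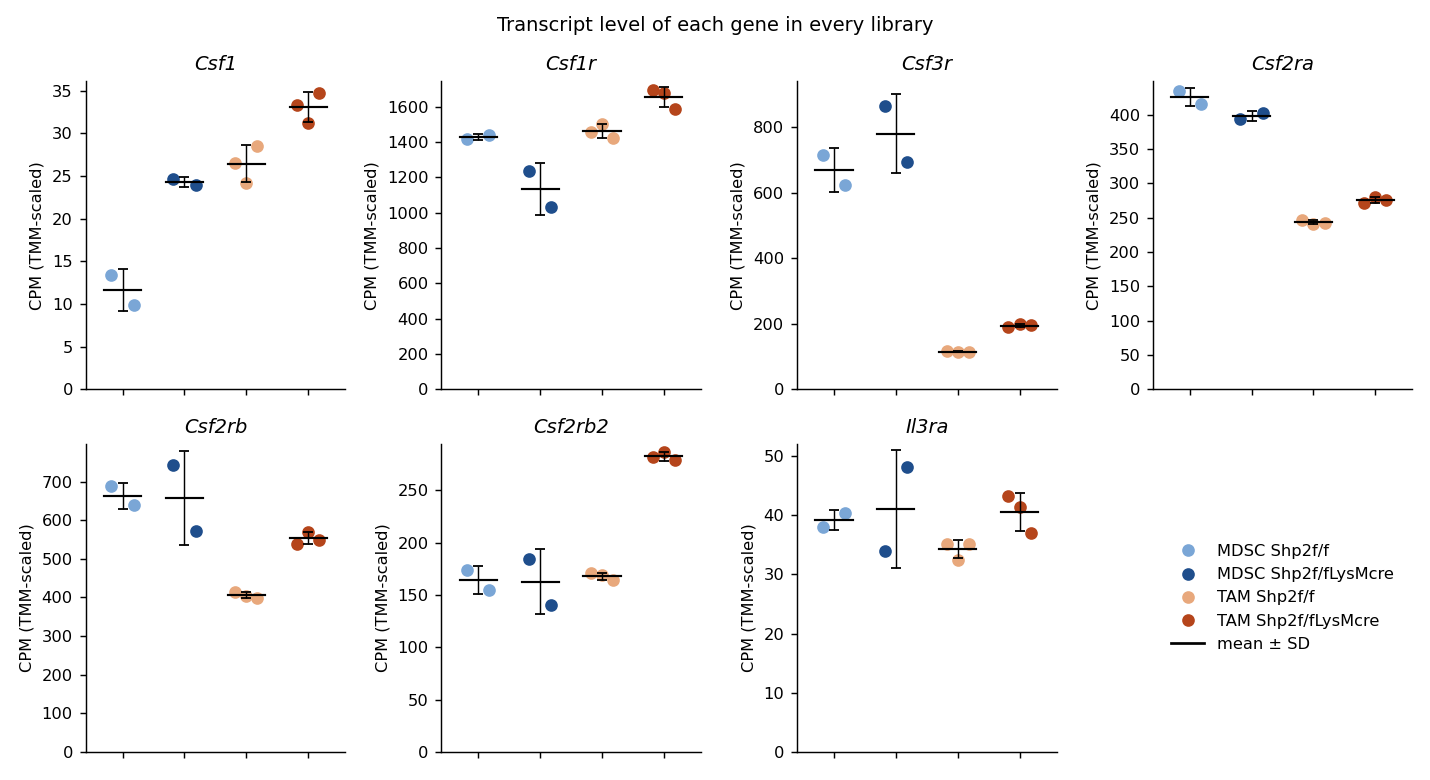
Level of each gene in CPM (vertical axis from 0) in every library, with points for single libraries, horizontal bars for group means and whiskers for the SD (n = 2 for MDSC, n = 3 for TAM). In TAM the Shp2f/fLysMcre points lie above the Shp2f/f points for all 7 genes, for example 279 to 287 against 164 to 171 CPM for Csf2rb2.

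The next comparison was the effect of genotype in TAM, which addresses whether loss of SHP-2 went with changed transcripts of the growth factor receptors. All 7 genes were called higher in TAM Shp2f/fLysMcre, and the libraries of the genotypes did not overlap for any of them. The increases ran from 1.10-fold for Csf1r and Csf2ra to 1.65-fold for Csf3r. Among all 14446 genes tested, 50.2% were called, 23.9% higher and 26.3% lower, and 30.7% had all Shp2f/fLysMcre libraries above the controls. The median log2 fold change of the 7 genes was 0.29, and that of all genes tested was -0.01.

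Csf3r rose from 117, 113 and 115 CPM in TAM Shp2f/f to 189, 199 and 196 CPM in TAM Shp2f/fLysMcre. This increase of 0.72 on the log2 scale was the largest of the 7 (SE 0.0383, edgeR, BH-adjusted p = 1.02e-07). Over the same TAM libraries the sum over granulocyte genes was 4247 to 4480 CPM of the total in Shp2f/f and 2109 to 2168 in Shp2f/fLysMcre, a sum led by Mmp9 (means of 4070 and 2007 CPM). Of its 9 tested genes 4 were called higher and 1, Mmp9, lower. Those called higher were Cxcr2 (means of 7.86 and 16.4 CPM), Mmp8 (38.6 and 76.3), S100a8 (55.0 and 79.4) and S100a9 (74.2 and 110.3). Of the other genes of the list, none called, most had lower means in Shp2f/fLysMcre. These were Ngp (5.62 and 4.55 CPM), Ltf (4.25 and 3.68), Camp (1.21 and 1.18), Mpo (0.33 and 0.09) and Ly6g (0.19 and 0.12). Retnlg had a higher mean (5.60 and 6.55), and Elane was at 0.07 in both. The 4 genes called higher moved in the direction of Csf3r, unlike most of the list. The part of granulocyte transcripts in the Csf3r increase was not tested.

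Csf2rb2, the chain used by IL-3, rose nearly as much. It was 171, 169 and 164 CPM in TAM Shp2f/f and 281, 287 and 279 CPM in TAM Shp2f/fLysMcre (log2 fold change 0.71, SE 0.0360, edgeR, BH-adjusted p = 7.67e-08). Csf2rb went from 415, 404 and 399 to 539, 569.7 and 549.7 CPM (0.41, SE 0.0375, edgeR, BH-adjusted p = 5.04e-06). The 95% intervals of both changes, 0.63 to 0.79 for Csf2rb2 and 0.33 to 0.49 for Csf2rb, did not overlap. With the counts of both genes added, so that shared sequence cannot move reads between them, the increase was 0.51 (SE 0.0350, edgeR, BH-adjusted p = 6.49e-07).

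The alpha chains rose less than the beta chains. Csf2ra was 247, 241 and 243 CPM in TAM Shp2f/f and 271, 281 and 275 CPM in TAM Shp2f/fLysMcre (log2 fold change 0.14, SE 0.0365, edgeR, BH-adjusted p = 0.00732). Il3ra was 35.2, 32.5 and 35.2 CPM in TAM Shp2f/f and 43.2, 41.3 and 37.0 CPM in TAM Shp2f/fLysMcre (0.21, SE 0.0616, edgeR, BH-adjusted p = 0.0159). The call for Il3ra was lost without TAM Shp2f/fLysMcre replicate 2 (0.20, edgeR, BH-adjusted p = 0.0585).

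The M-CSF axis changed little in size. Csf1r went from 1457, 1503 and 1425 CPM to 1695, 1677 and 1589 CPM, a log2 fold change of 0.14 (SE 0.0330, edgeR, BH-adjusted p = 0.00398). Its ligand Csf1 went from 26.5, 24.2 and 28.5 to 33.4, 31.2 and 34.7 CPM (0.29, SE 0.0688, edgeR, BH-adjusted p = 0.0047). Fold changes come from fits scaled within the cell type and differ by a few percent from the ratio of the CPM means, which are scaled over all libraries. The sum over monocyte and macrophage markers was higher in the same libraries (15795 to 17394 against 10522 to 10916 CPM of the total), with 10 of 12 genes called higher and 2 lower.

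The small increases depended on scaling. With total counts in place of TMM, the median of all genes was -0.11 in TAM and 30.9% of calls were higher, against 47.6% with TMM. The changes of Csf1r (0.04), Csf2ra (0.04) and Il3ra (0.11) were then not called (edgeR, BH-adjusted p = 0.208, 0.332 and 0.149), whereas Csf1 (0.19), Csf2rb (0.31), Csf2rb2 (0.62) and Csf3r (0.62) were still called. All 7 directions stayed upward under both scalings. Leaving out TAM Shp2f/f replicate 3, which held the most pancreas transcript, left all 7 genes called. The controls that remained held pancreas sums of 1298 and 855 CPM of the total, still above the 18.7 to 87.2 of Shp2f/fLysMcre. This fit therefore cannot separate pancreas transcript from genotype, and its part was not tested.

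In MDSC the picture was another one. Csf1 was the only one of the 7 genes called between the genotypes, and it was higher in MDSC Shp2f/fLysMcre. Of all 14806 genes tested 4.28% were called, 3.76% higher and 0.520% lower. The libraries of the genotypes did not overlap for 3 of the 7 genes (Csf1, Csf1r and Csf2ra), against 48.9% of all genes. Csf1 was 13.4 and 9.92 CPM in MDSC Shp2f/f and 24.7 and 23.9 CPM in MDSC Shp2f/fLysMcre, from 462, 344, 912 and 954 counts. The increase was 2.07-fold (log2 1.05, SE 0.174, edgeR, BH-adjusted p = 0.0372). The call was lost without MDSC Shp2f/f replicate 1 (1.28) or replicate 2 (0.85), fits that left 1 control library. The sums over fibroblast genes were 11.4 and 491 CPM of the total in the Shp2f/fLysMcre libraries with 24.7 and 23.9 CPM of Csf1.

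For the 6 receptor genes in MDSC no change was called by edgeR or DESeq2, none had an unadjusted p under 0.05, and the intervals were wide. Csf1r was 1419 and 1441 CPM in MDSC Shp2f/f and 1237 and 1030.3 CPM in MDSC Shp2f/fLysMcre, lower in both, with a log2 fold change of -0.34 (95% interval -0.70 to 0.01, edgeR, BH-adjusted p = 0.277). Without 1 library the Csf1r change ranged from -0.52 to -0.21, and each such fit left 1 library in a group. Csf3r was 716 and 623 CPM in MDSC Shp2f/f and 866 and 696 CPM in MDSC Shp2f/fLysMcre, which overlap (0.22, 95% interval -0.19 to 0.62, edgeR, BH-adjusted p = 0.561). Without 1 library Csf3r ranged from 0.01 to 0.38. The value of 0.38 came without MDSC Shp2f/fLysMcre replicate 2, the library with the high fibroblast sum.

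The GM-CSF and IL-3 receptor genes had fold changes near 0 in MDSC. Csf2ra was 435 and 416 CPM in MDSC Shp2f/f and 393 and 403 CPM in MDSC Shp2f/fLysMcre (-0.10, 95% interval -0.38 to 0.17). Csf2rb was 687 and 639 against 743 and 572 CPM (-0.02, -0.43 to 0.40), and Csf2rb2 was 174 and 155 against 185 and 141 CPM (-0.02, -0.45 to 0.41). Il3ra was 38.0 and 40.4 against 34.0 and 48.1 CPM (0.06, -0.38 to 0.50). For Csf2rb, Csf2rb2 and Il3ra the MDSC Shp2f/fLysMcre libraries lay on either side of the controls. The TAM changes of Csf2ra and Il3ra fall within these intervals, and that of Csf2rb2 (0.71) lies above. That of Csf2rb (0.41) lies just above the limit of 0.40, and its TAM interval of 0.33 to 0.49 overlaps the MDSC interval.

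**Figure D3:**
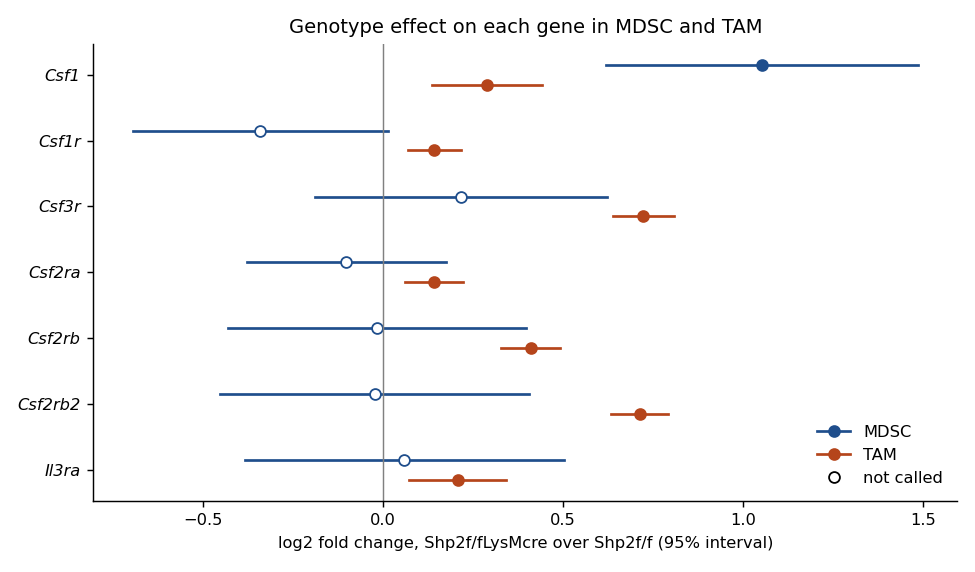
Log2 fold change of each gene in Shp2f/fLysMcre over Shp2f/f (horizontal axis) in MDSC (blue) and TAM (red), with 95% intervals from edgeR; filled points were called at a BH-adjusted p under 0.05. All 7 TAM points lie above 0, from 0.14 to 0.72, and in MDSC only Csf1 at 1.05 is filled.

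Whether the genotype effect differed between the cell types was tested as an interaction over all 10 libraries. It was called for 6 of the 7 genes, against 24.9% of 16581 genes (12.2% higher and 12.7% lower). The effect was higher in TAM for Csf2rb2 by 0.77 (SE 0.144, edgeR, BH-adjusted p = 0.00406), for Csf3r by 0.54 (SE 0.133, edgeR, BH-adjusted p = 0.0164) and for Csf1r by 0.51 (SE 0.112, edgeR, BH-adjusted p = 0.00873). It was also higher for Csf2rb by 0.46 (SE 0.138, edgeR, BH-adjusted p = 0.0372) and for Csf2ra by 0.27 (SE 0.0733, edgeR, BH-adjusted p = 0.0232). For the ligand Csf1 the effect was lower in TAM, by -0.73 (SE 0.169, edgeR, BH-adjusted p = 0.0114). The difference for Il3ra was 0.17 (95% interval -0.24 to 0.58) and was not called. The transcript of the targeted gene Ptpn11 also fell by more in TAM (-0.92, SE 0.118, edgeR, BH-adjusted p = 0.00045). The loss of the target was therefore not alike in both fractions, and its part in these differences was not tested.

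These calls were not equally firm. That for Csf2rb2 held in all 10 fits that left out 1 library. That for Csf2rb was lost in 8 of 10, with values of 0.28 to 0.67. That call held only without an MDSC Shp2f/fLysMcre library, where the spread within that group did not enter. That for Csf2ra was lost in 4 of 10, without MDSC Shp2f/f replicate 1, TAM Shp2f/f replicate 2 or 3, or TAM Shp2f/fLysMcre replicate 2. The call for Csf3r was lost without MDSC Shp2f/f replicate 1 (0.44, edgeR, BH-adjusted p = 0.0907), and those for Csf1 and Csf1r were lost without MDSC Shp2f/f replicate 2 (-0.51 and 0.53, edgeR, BH-adjusted p = 0.0508 and 0.0545). With total counts, where the median of all genes was -0.18, Csf2ra (0.10) and Csf2rb (0.29) were no longer called.

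Ratios between genes of the same library do not depend on scaling, and 4 of them were computed in each cell type from counts per kb. The ratio of Csf3r to Csf1r, the receptors of G-CSF and M-CSF, was 0.808 and 0.691 in MDSC Shp2f/f and 1.12 and 1.08 in MDSC Shp2f/fLysMcre. In TAM it was 0.128, 0.120 and 0.130 in Shp2f/f and 0.179, 0.189 and 0.197 in Shp2f/fLysMcre. The ratio was thus higher in Shp2f/fLysMcre in both cell types with no overlap, by 0.56 (MDSC) and 0.58 (TAM) on the log2 scale. A design of 2 against 2 cannot give a p below 0.333, and one of 3 against 3 cannot give one below 0.10. The 2-sided exact permutation p was at this floor in both (0.333 in MDSC and 0.10 in TAM, BH-adjusted 0.667 and 0.267 over 8 tests).

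The ratio of Csf2rb2 to Csf2rb separated the cell types and, in TAM, the genotypes. It was 0.389 and 0.372 in MDSC Shp2f/f and 0.381 and 0.377 in MDSC Shp2f/fLysMcre, which overlap. In TAM it was 0.632, 0.643 and 0.632 in Shp2f/f and 0.801, 0.773 and 0.779 in Shp2f/fLysMcre, higher by 0.30 on the log2 scale (2-sided exact permutation p = 0.10, BH-adjusted 0.267). The ratio of Csf2rb to Csf2ra, the chains of the GM-CSF receptor, also lay higher in each Shp2f/fLysMcre library of TAM than in any control. It was 0.661, 0.662 and 0.648 in TAM Shp2f/f and 0.784, 0.801 and 0.788 in TAM Shp2f/fLysMcre (log2 difference 0.27, 2-sided exact permutation p = 0.10, BH-adjusted 0.267). In MDSC this ratio was 0.623 and 0.606 in Shp2f/f and 0.745 and 0.560 in Shp2f/fLysMcre. The ratio of Il3ra to Csf2ra overlapped between genotypes in both cell types, from 0.0836 to 0.116 in MDSC and from 0.130 to 0.154 in TAM.

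**Figure D4:**
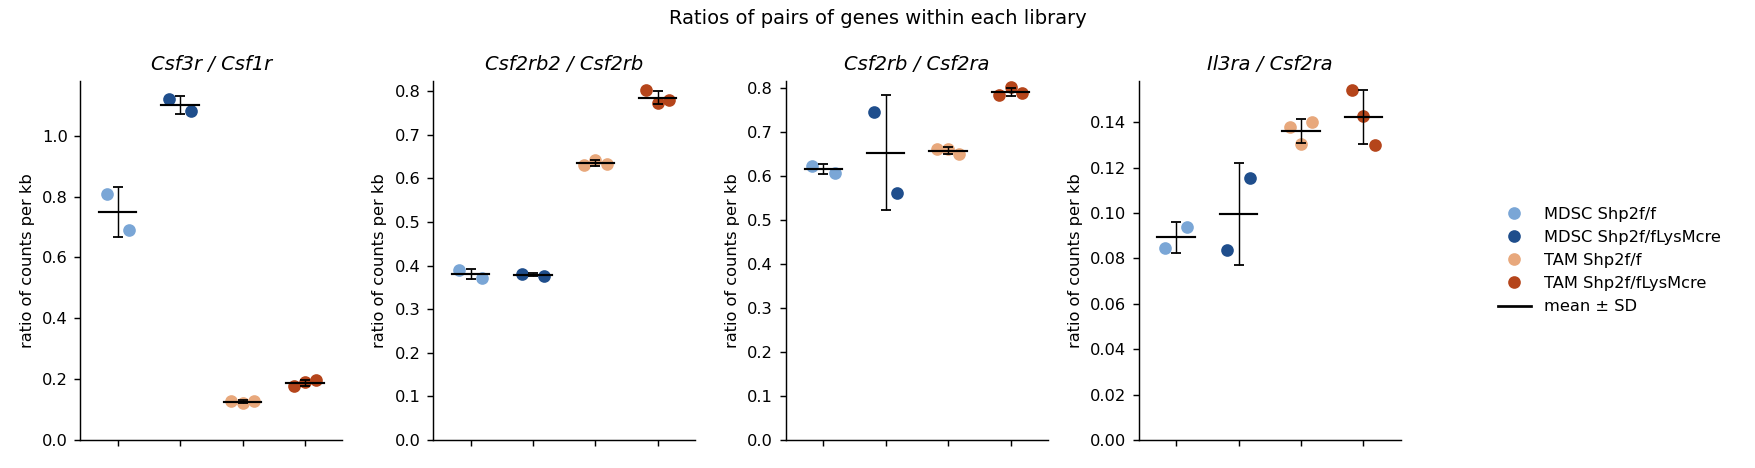
Ratios of counts per kb between pairs of genes within each library (vertical axes from 0), with points for libraries, bars for means and whiskers for the SD. Csf3r over Csf1r is higher in Shp2f/fLysMcre in both cell types, while Csf2rb2 over Csf2rb is about 0.38 in all 4 MDSC libraries and rises from 0.636 to 0.784 (means) in TAM.

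The genes whose levels followed a member most closely over the 10 libraries were sought among 8848 genes whose mean reached 10 CPM. For Csf1r they were Tmf1 (Pearson r of log2 CPM 0.989), Gpr35 (0.985) and Capza2 (0.981). For Csf2rb they were Fgd4 (0.992), Xdh (0.992) and Snx27 (0.990), and for Csf3r Aatk (0.998), Prkcd (0.997) and Rcsd1 (0.997). Csf2ra followed Csf3r with r = 0.984. The libraries fall into 2 cell types, which carry much of these values, so they are a description of level patterns over 10 libraries of 4 groups.

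Other ligands of these pathways were scarce. Il3 had 0 counts in every library, Il5 at most 2 and Csf2, the gene of GM-CSF, at most 9. Csf3, the gene of G-CSF, had a mean of 3.92 CPM in TAM Shp2f/f and 5.46 in TAM Shp2f/fLysMcre (log2 fold change 0.44, edgeR, BH-adjusted p = 0.08) and at most 0.68 CPM in MDSC. Il34, the other ligand of CSF1R, fell from 2.37 ± 0.27 CPM in TAM Shp2f/f to 0.92 ± 0.04 in TAM Shp2f/fLysMcre (SD, n = 3; log2 fold change -1.40, SE 0.188, edgeR, BH-adjusted p = 9.14e-05), opposite to Csf1. In MDSC it was at 0 to 0.0751 CPM. Kitl had means of 3.52 and 3.70 CPM in TAM and 0.52 and 0.78 in MDSC, and Flt3l had 3.95 and 5.04 CPM in TAM and 15.7 and 17.1 in MDSC, none of them called between genotypes.

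Related receptors were mainly found in MDSC. Flt3, a receptor of dendritic cell progenitors, was at 32.1 and 26.4 CPM in MDSC Shp2f/f and Shp2f/fLysMcre and at 2.64 and 1.80 in the TAM groups, where it fell (log2 fold change -0.59, SE 0.174, edgeR, BH-adjusted p = 0.0146). Kit, the stem cell factor receptor, was at 12 and 13.4 CPM in MDSC and 3.50 and 3.58 in TAM. Epor, the erythropoietin receptor gene, rose in MDSC from 8.90 to 18.6 CPM (log2 fold change 1.06, SE 0.183, edgeR, BH-adjusted p = 0.0421). The sum over 5 erythroid genes in MDSC was 110 to 123 CPM of the total in Shp2f/f and 255 to 346 in Shp2f/fLysMcre, with 5 of 5 called higher. Il5ra, the alpha chain for IL-5, had at most 6 counts in any library, so of the receptors that use Csf2rb that of IL-5 was near 0.

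Counts for the pathway lists stand beside the shares of all genes tested, which were 23.9% called higher and 26.3% lower in TAM and 3.76% higher and 0.520% lower in MDSC. No test of the lists themselves was made. Of 21 signaling genes next to the receptors, 17 were called higher in TAM Shp2f/fLysMcre and 2 lower, with a list median of 0.25 against -0.01 for all genes. The 2 lower ones were Ptpn11 itself and Pik3r1, a regulatory subunit of PI3 kinase (-0.29). Among the genes called higher was the PI3 kinase gene Pik3cd (0.41, SE 0.0404, edgeR, BH-adjusted p = 9.38e-06). In MDSC 0 of the 21 were called by edgeR or DESeq2, 2 had an unadjusted p under 0.05 (Stat5a and Lyn, both lower), and the list median was -0.15. Among 11 negative regulators, 7 were called higher and 0 lower in TAM. Socs3, which blocks signaling of CSF3R, led with 0.79 (SE 0.0348, edgeR, BH-adjusted p = 3.06e-08), before the adaptor gene Dok1 (0.28, edgeR, BH-adjusted p = 0.000871) and Ptpn6, the gene of SHP-1 (0.26, edgeR, BH-adjusted p = 0.00036). In MDSC 0 of the 11 were called by edgeR, 4 had an unadjusted p under 0.05 and DESeq2 called 2 (Socs3 lower and Cish higher). Socs3 was at -0.46 there (SE 0.117, edgeR, BH-adjusted p = 0.108).

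Of 6 target genes of these receptors, 4 were called higher and 1 lower in TAM, where 50.2% of all genes were called in either direction. Osm (0.54, SE 0.0412, edgeR, BH-adjusted p = 1.31e-06) and the kinase gene Pim1 (0.46, SE 0.0351, edgeR, BH-adjusted p = 1.40e-06) rose, and Ccnd1, a cyclin of the G1 phase, fell by 0.69 (SE 0.0353, edgeR, BH-adjusted p = 8.18e-08). The sum over 6 proliferation genes was 486 to 517 CPM of the total in TAM Shp2f/fLysMcre and 881 to 885 in TAM Shp2f/f, with 6 of 6 called lower. In MDSC 0 of the 6 targets were called by edgeR or DESeq2, and 2 had an unadjusted p under 0.05.

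Of 8 tested transcription factors that act on these receptor genes, 4 were called higher and 0 lower in TAM, a share called near the 50.2% of all genes. Among them were Cebpa (0.94, SE 0.0427, edgeR, BH-adjusted p = 3.83e-08) and Irf8 (0.70, SE 0.0412, edgeR, BH-adjusted p = 2.13e-07). Spi1, which encodes PU.1, was at 0.04 (SE 0.0429, edgeR, BH-adjusted p = 0.472). In MDSC 2 of 8 were called higher and 1 lower, the 2 higher ones being the granulocyte factors Gfi1 (2.26, SE 0.150, edgeR, BH-adjusted p = 0.017) and Cebpe (1.93, SE 0.195, edgeR, BH-adjusted p = 0.0183). Hoxa10 had at most 5 counts in any library. Over all 52 tested genes of the 6 lists, 32 were called higher and 5 lower in TAM, against 23.9% and 26.3% of all genes. In MDSC 3 were called higher and 1 lower, against 3.76% and 0.520% of all genes.

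**Figure D5:**
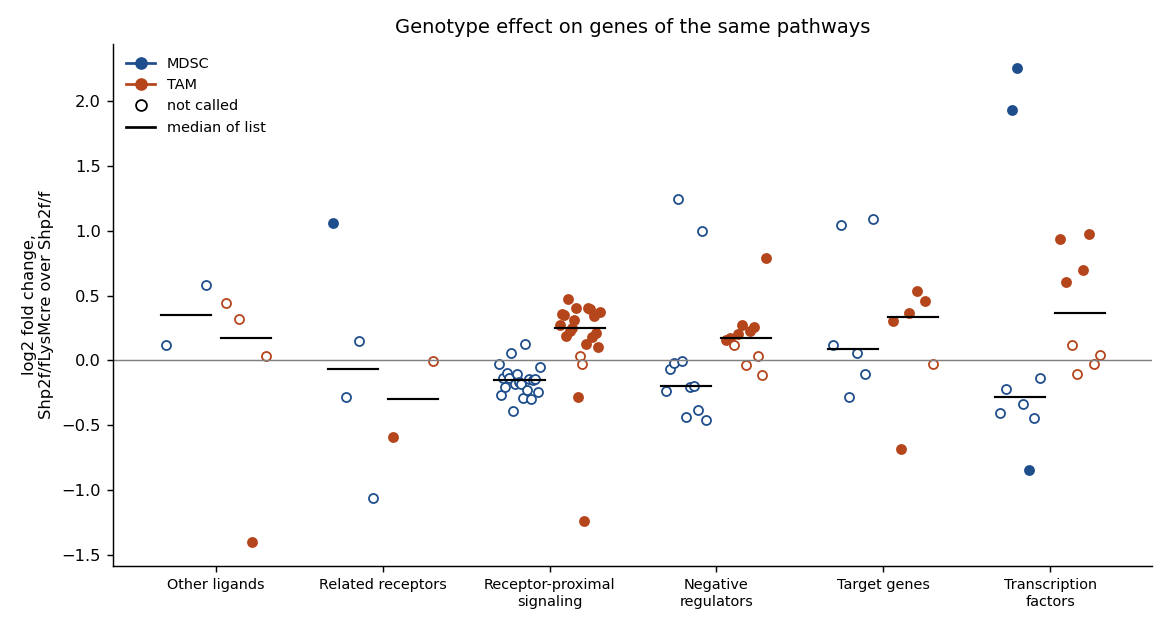
Log2 fold change of Shp2f/fLysMcre over Shp2f/f (vertical axis) for the tested genes of 6 pathway lists in MDSC (blue) and TAM (red); filled points were called at a BH-adjusted p under 0.05 and bars are list medians. For receptor-proximal signaling genes the median is 0.25 in TAM and -0.15 in MDSC, with 17 genes called higher in TAM and none called in MDSC.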

How the data were processed

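Poly(A) RNA was sequenced as stranded, paired 42-nt reads. The authors checked reads with FastQC 0.11.5, trimmed them with Cutadapt 2.5, aligned them to GRCm38 with STAR 2.7.3a and deposited raw counts per Ensembl gene from featureCounts (Subread 1.6.2). Strand and multimapping settings are not given in the sources used here. The authors also deposited a normalized signal, counts divided by 1 size factor per library (DESeq2 1.24.0), which was used only to check the 7 genes.

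Symbols and exons came from GENCODE M21, which matched 99.67% of identifiers. Counts were filtered with filterByExpr (minimum count 10), scaled by TMM and tested with the quasi-likelihood F test of edgeR 4.0.16 (R 4.3.3), per cell type for genotype, per genotype for cell type, and over all 10 libraries for the interaction. P-values were BH-adjusted over all genes tested, with calls at 0.05. The fits were tested on simulated data. Ratios were compared by exact permutation tests (SciPy 1.17.1). Alternatives were DESeq2 1.42.0, other scalings and filters, a replicate block, summed beta chains, 1 fit of all libraries and leaving out each library.

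The members and lists were chosen with earlier results of these data known. Named beside the members are all other ligands and related receptors, up to 3 called genes per list and cell type with the largest changes, the 3 closest genes in pattern, and Ptpn11, Lyz2 and Xist. Some genes that this rule takes are not reported here. Spi1, Pik3r1, Hoxa10, Stat5a, Lyn, Cish and the Socs3 value in MDSC were added after their values were seen. So were the marker genes Ly6g, Ly6c2, Ccr2, Mmp9, Cxcr2, Mmp8, S100a8, S100a9, Ngp, Ltf, Camp, Mpo, Retnlg and Elane.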

Additional observations from a re-analysis of the deposited data

Results flagged for a closer look

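The genotype effect differed between TAM and MDSC for 6 of the 7 genes in the interaction test of edgeR, which flagged them. The difference (TAM minus MDSC, log2 scale) was 0.77 for Csf2rb2, 0.54 for Csf3r, 0.51 for Csf1r, 0.46 for Csf2rb, 0.27 for Csf2ra and -0.73 for Csf1. Csf1 rose in both cell types, by more in MDSC. Csf1r was lower in both MDSC Shp2f/fLysMcre libraries and higher in all 3 TAM Shp2f/fLysMcre libraries than any control of its cell type. The MDSC side of each difference rests on 2 libraries a group. The test used 1 spread for both cell types, so its p-values can be too small. The Ptpn11 transcript also fell by more in TAM than in MDSC (difference -0.92).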

How the results depend on the processing

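All 7 members kept their upward direction in TAM under every alternative and left-out library. In MDSC 1 member was called higher (0 to 2 without 1 library) and 0 lower (0 to 1), and 633 genes were called in all. That number was 1256 with DESeq2, 130 with every gene of at least 1 count kept (where 0 members were called and Csf1 had 1.04), 2666 in 1 fit of all 10 samples (where 1 member, Csf1r, was called lower), and 1 to 4406 without 1 library. A fit without 1 MDSC library leaves 1 library in that group, so the spread within that group does not enter such calls. In TAM 7 members were called (6 to 7 without 1 library), 4 with total counts. Over all alternatives that kept every library, 7 single-gene calls in TAM were lost and 48 results stayed the same. Total counts was thus not the only setting that lost calls. The number of genes called in TAM was 7257, 4837 in 1 fit of all 10 samples and 6176 to 7316 without 1 library. In the interaction, members called higher numbered 5 (2 to 6 without 1 library, 3 with total counts), those lower 1 (0 to 1), and all genes 4131 (2446 to 7026 without 1 library). Between the cell types, the members called higher and lower were 1 to 2 and 3 to 4 in Shp2f/f and 3 and 2 to 3 in Shp2f/fLysMcre without 1 library.

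Reversals were confined to values that were not called. With total counts Csf2rb and Csf2rb2 in MDSC were at 0.0193 and 0.0134 and the interaction of Il3ra at -0.00599. Without 1 MDSC library Csf2rb ranged from -0.26 to 0.17, Csf2rb2 from -0.27 to 0.17 and Il3ra from -0.20 to 0.25 in MDSC, and the interaction of Il3ra from -0.0465 to 0.45. Csf2rb2 in TAM against MDSC ranged from -0.0581 to 0.11 in Shp2f/f. In Shp2f/fLysMcre, Il3ra in TAM against MDSC was at 0.0135 with DESeq2, 0.0134 with its size factors, at 0.0406 with every gene kept and from -0.23 to 0.24 without 1 library, and the summed beta chains were at 0.0338. The causes were not tested.

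Same-numbered libraries of the genotypes deviated together with correlations of 0.41 in MDSC and -0.20 to 0.05 in TAM, and those of the cell types with -0.28 to 0.15, so the numbers were not taken as pairs. Under the replicate block 2674 MDSC genes were called, Il3ra in TAM against MDSC in Shp2f/fLysMcre was at 0.0593, and Csf1 lost its call there (0.41, edgeR, BH-adjusted p = 0.08). No other member changed its call under the block. With 2 MDSC libraries a group, intervals were about 0.8 wide on the log2 scale and small changes could not be seen.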
